A study of Homo sapiens with 11 samples.

Results

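The 10 genes described here belong to the neuronal cytoskeleton and growth cone and were followed in IMR32, a human neuroblastoma cell line. They are the tubulin genes TUBB3, TUBB2A, TUBB2B and TUBA1A, the neuronal intermediate filament genes NEFL, NEFM, NEFH, INA and PRPH, and GAP43. Members were all probe sets of the array annotated with 1 of these 10 gene symbols, which found each of the 10 among 19775 measured genes, through 17 of the 41091 probe sets with a single symbol. Of the 17, 14 lay above a dim limit (signal 11.1, under which 40 percent of probe sets lie). Another probe set was annotated to both TUBB2A and TUBB2B and is described without a test. The tubulin and GAP43 genes lie on chromosomes 16, 6, 12 and 3, and TUBB2A and TUBB2B are neighbours on chromosome 6 with no other protein-coding gene starting between them.

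Microtubules are hollow polymers of alpha- and beta-tubulin, and neurons use a particular set of tubulin isotypes while their axons grow. Neurofilaments, built from light, medium and heavy chains together with alpha-internexin or peripherin, set the calibre of axons and serve as markers of neuronal maturity. GAP43 is a membrane-bound protein of growth cones and is made in quantity during axon growth and regeneration.

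The 11 arrays compare lentiviral transductions over time. The label of 1 hairpin RNA against MYCN (shMYCN) was on 6 arrays, A and B at each of 24, 48 and 72 hours. A further 3 carried the label of the SHC002 control hairpin, with 1 array an hour, and 2 that of untransduced cells at 0 hours. All are cells of 1 line, whose MYCN amplification is shared by every group. Labels call B a duplicate and do not say that A and B were separate cultures, so the p-values rest on a spread that may be technical.

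MYCN itself was not called lower under the shMYCN label: 0 of its 10 probe sets passed as lower in any comparison by hour or over the hours (limma), and the brightest lay between 4567.4 and 5623.7, against 5055.3 to 5389.7 with control virus. The next brightest varied more, between 254.2 and 795.6 against 370.4 to 520.1. It gave log2 -0.55 ± 0.31 at 24 hours and 0.93 ± 0.31 at 72 hours, and neither passed (limma adjusted p = 0.663 and 0.0996). Every direction below therefore rests on the labels. The authors deposited linear signals scaled to the same trimmed mean on each array, so a change in total RNA per cell cannot be seen, and fewer cells with a transcript cannot be told apart from less transcript per cell. The sympathetic neuroblastoma markers PHOX2A, GATA3 and ISL1 averaged 1211, 3264 and 763.1 over the 11 arrays. TH, an enzyme of catecholamine synthesis, averaged 7.73, under the dim limit. Over all genes 10.3 percent passed as higher as a mean over the hours and 7.82 percent as lower. Of 8 such markers measured, 3 passed as higher, or 37.5 percent (TH, CHGA and CHGB), and 1 as lower, or 12.5 percent (DBH). None of these 4 calls held without the 72 hour control: TH gave 0.31, CHGA 0.25, CHGB 0.29 and DBH -0.16 on the log2 scale, and TH and CHGA lost theirs under 8 of 18 and 6 of 20 alternatives.

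The promoter windows below show the genes on which the results turn: the pair of class II beta-tubulin genes and GAP43 and PRPH, which moved in opposite directions. Each is the RefSeq sequence (build GRCh38.p14) of the 250 bases before and 50 bases after the gene's start, 5′ to 3′ on the gene's strand. Capitals mark 2 motifs searched on both strands: CANNTG, the general E-box letters, and ACGTCA, the core letters of a cyclic AMP response element. The window of TUBB2A is chr6:3157495-3157794 on the minus strand and that of TUBB2B is chr6:3227604-3227903 on the minus strand. GAP43 has chr3:115623260-115623559 on the plus strand and PRPH has chr12:49294897-49295196 on the plus strand.
TUBB2A: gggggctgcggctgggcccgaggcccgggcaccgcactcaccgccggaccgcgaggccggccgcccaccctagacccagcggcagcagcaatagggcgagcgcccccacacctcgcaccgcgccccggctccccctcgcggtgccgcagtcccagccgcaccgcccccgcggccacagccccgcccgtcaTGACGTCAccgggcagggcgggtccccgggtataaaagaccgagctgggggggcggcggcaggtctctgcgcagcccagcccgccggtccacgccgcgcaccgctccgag
TUBB2B: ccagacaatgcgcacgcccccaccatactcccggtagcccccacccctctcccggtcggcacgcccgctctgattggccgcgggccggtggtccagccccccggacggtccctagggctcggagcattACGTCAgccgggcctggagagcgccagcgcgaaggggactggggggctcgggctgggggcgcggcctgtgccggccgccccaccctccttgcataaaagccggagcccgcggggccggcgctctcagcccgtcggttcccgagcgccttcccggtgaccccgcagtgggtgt
GAP43: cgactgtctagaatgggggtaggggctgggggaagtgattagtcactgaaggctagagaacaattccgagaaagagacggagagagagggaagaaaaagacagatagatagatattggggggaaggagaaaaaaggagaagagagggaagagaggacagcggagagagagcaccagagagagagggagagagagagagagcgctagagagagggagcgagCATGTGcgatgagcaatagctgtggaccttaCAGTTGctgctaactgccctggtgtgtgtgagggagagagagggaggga
PRPH: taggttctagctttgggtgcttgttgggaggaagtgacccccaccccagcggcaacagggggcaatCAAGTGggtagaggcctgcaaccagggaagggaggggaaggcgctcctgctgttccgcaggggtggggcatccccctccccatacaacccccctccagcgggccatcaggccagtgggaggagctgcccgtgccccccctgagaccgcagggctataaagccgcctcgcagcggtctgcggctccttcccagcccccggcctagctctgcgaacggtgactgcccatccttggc

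Windows were at hand for 7 of the 10 genes, 8 windows in all, since TUBB3 has 2 start sites. The E-box that MYC proteins bind best, CACGTG, is a special case of CANNTG and is in none of the 8. Of 35116 windows of 300 bases in the table, 7.3 percent hold it. The general letters CANNTG occur in 68.7 percent of all windows and stand at 2 places each in GAP43 and INA and at 1 in PRPH. ACGTCA occurs in 8.0 percent of all windows and stands at 1 place in TUBB2B and, as a palindrome read on both strands, at 2 overlapping places in TUBB2A. TATAAA, the TATA box letters, occurs in 11.5 percent and stands at 1 place each in TUBB2A and PRPH. A match describes these letters and no more.

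The main comparison set the shMYCN label against control virus, averaged over the 3 hours. Of the 10 genes, 6 rose by their brightest probe set: TUBB2B, GAP43, NEFH, NEFL, NEFM and TUBB2A. PRPH fell, and TUBB3, TUBA1A and INA did not pass. Over probe sets, 8 of 17 passed (limma, adjusted p below 0.05), beside 14.7 percent of all 41091 tested. Of these, 7 were higher, beside 7.83 percent of all, and 1 was lower, beside 6.89 percent. Bright probe sets pass more often: among the brighter 60 percent, 7 of 14 members were higher beside 12.5 percent, and 1 was lower beside 10.5 percent. By the brightest probe set of each gene, 6 of 10 were higher beside 10.3 percent of 19775 genes and 1 of 10 was lower beside 7.82 percent. The 10 genes were chosen with earlier results of these data known, so these shares describe them and are no test of the set. The median log2 fold change was 0.24 over the 17 probe sets and 0.0076 over all probe sets. All folds are of the signal plus 16, which understates changes of dim genes. This count rests on few arrays. Leaving out the 72 hour control virus array, and with it that hour, gave 0 of 17 (limma, 7 at an unadjusted p below 0.05). Over all 41091 probe sets that setting called 1722, beside 6051 in the main fit. Leaving out the 48 hour control gave 2 members, beside 3923 of all. Without shMYCN array A of 24 hours 4 passed, and without array B of 24 hours or array A of 72 hours 5 each. An additive model of virus and hour called 1, beside 3002 of all. The count over all probe sets was also lower in each of the left-out settings named here.

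**Figure D1:**
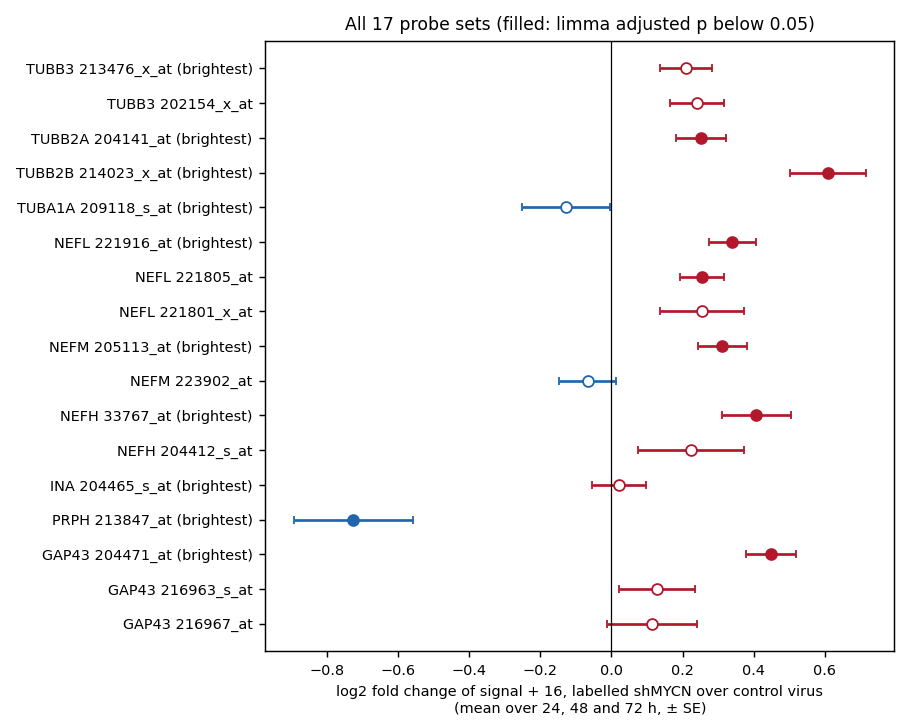
Log2 fold change of signal + 16, arrays labelled shMYCN over control virus, as the mean over 24, 48 and 72 hours, for all 17 probe sets. Points are limma estimates with their standard errors and filled points passed at an adjusted p below 0.05. Of the 17, 7 filled points lie right of 0 and 1, PRPH, lies left of it.

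TUBB2B, a beta-tubulin isotype of developing brain, rose. Its signal was 1758.0 and 1942.5 at 24 hours, 2777.4 and 2036.5 at 48 hours and 2902.4 and 2450.3 at 72 hours under the shMYCN label, against 1741.1, 1441.7 and 1302.5 with control virus and 1517.4 and 1670.7 without virus. All 6 arrays labelled shMYCN lay above all 3 control virus arrays. This was the one member probe set of 17 with no overlap. Over all probe sets 5.79 percent were higher and 5.6 percent lower without overlap. For orders against the control of the hour, or at some hours only, given for members below, no share over all probe sets was counted. The mean was 1.53-fold higher (log2 0.61 ± 0.11 SE, limma adjusted p = 0.00696). At 72 hours TUBB2B was 2.04-fold higher (log2 1.02 ± 0.19, limma adjusted p = 0.0095). The control arrays declined with the hour while the arrays labelled shMYCN were highest at 72 hours, and the difference of the 72 and 24 hour effects missed the threshold at 0.94 ± 0.26 (limma adjusted p = 0.127). Leaving out the 72 hour control gave a mean of 0.40 (not passed, limma adjusted p = 0.149). The 72 hour effect was 0.90 without array A of that hour (limma adjusted p = 0.056).

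TUBB2A encodes a beta-tubulin protein nearly identical to that of TUBB2B. In the arrays labelled shMYCN it measured 2175.2 and 2110.5 at 24 hours, 2490.3 and 2157.0 at 48 hours and 2314.2 and 2033.5 at 72 hours. With control virus it read 1758.6, 1745.8 and 2071.4, and without virus 1901.7 and 2009.3. The groups overlapped, since array B of 72 hours lay under its control. The mean was 1.19-fold higher (log2 0.25 ± 0.07), at the edge of the threshold (limma adjusted p = 0.0498), and the call was lost under 12 of 20 alternatives. At 72 hours TUBB2A differed by log2 0.07 ± 0.12 (limma adjusted p = 0.827).

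The probe set annotated to both TUBB2A and TUBB2B gave 815.2 and 777.7 at 24 hours, 991.9 and 1095.1 at 48 hours and 1274.5 and 1353.8 at 72 hours under the shMYCN label, against 774.5, 892.4 and 771.0 with control virus and 746.7 and 743.8 without virus. Its arrays labelled shMYCN were highest at 72 hours, as were those of TUBB2B. The shared probe set and those of TUBB2B and TUBB3 end in x_at, the manufacturer's mark for probes that may bind other transcripts. Signals of these close paralogues are therefore uncertain as to gene. The brightest probe sets of TUBB, TUBA1B, TUBA1C, ARL2 and KRT10, described below, carry the same mark.

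**Figure D2:**
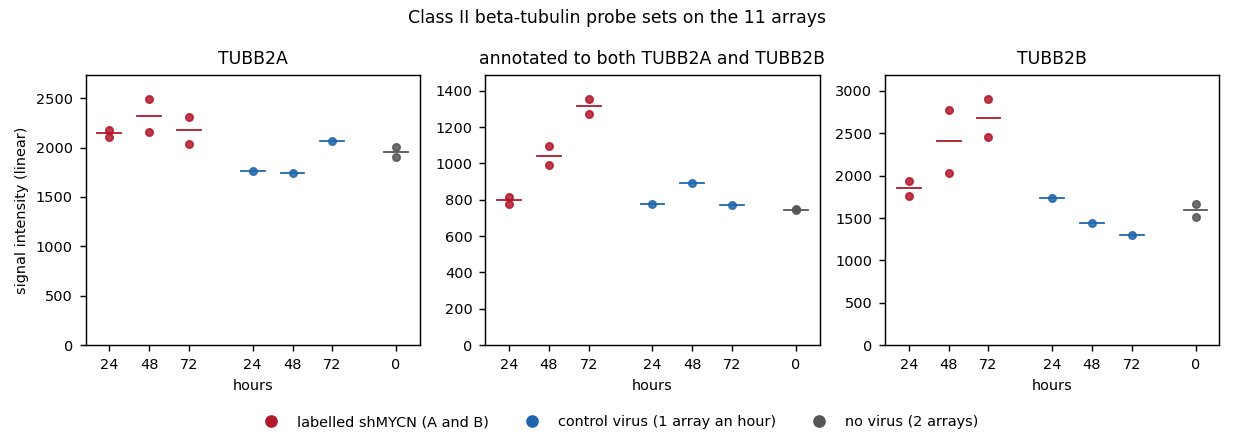
Linear signal intensity of the probe sets of TUBB2A, of both genes together and of TUBB2B on each of the 11 arrays, by hour (points are arrays, lines group means). At 72 hours TUBB2B and the shared probe set lie above every control virus and no virus array, while array B of TUBB2A lies at 2033.5 against 2071.4 in the control.

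TUBB3, the class III beta-tubulin used as a marker of neurons, did not pass in the main comparison. Its brightest probe set measured 3095.8 and 2918.5 at 24 hours, 3329.6 and 3878.8 at 48 hours and 4061.3 and 3719.8 at 72 hours under the shMYCN label, against 3021.6, 3043.3 and 2950.7 with control virus and 2762.0 and 2579.3 without virus. At 48 and 72 hours each array labelled shMYCN lay above the control of its hour, while at 24 hours the control lay between the 2 arrays. The mean was log2 0.21 ± 0.07 (limma adjusted p = 0.103, 95 percent interval 0.040 to 0.378), and 72 hours gave 0.40 ± 0.13 (limma adjusted p = 0.0866). The second TUBB3 probe set gave 0.24 ± 0.08 for the mean (limma adjusted p = 0.0717). The call of TUBB3 is sensitive to the setting: it passed under 5 of 20 alternatives, among them quantile normalization (log2 0.29, limma adjusted p = 0.00911). The mean of TUBB3 was 0.12 without the 72 hour control (limma adjusted p = 0.574) and 0.32 without the 24 hour control (limma adjusted p = 0.0474). Against no virus both TUBB3 probe sets rose, by log2 0.38 ± 0.08 (limma adjusted p = 0.0257) and 0.37 ± 0.09 (limma adjusted p = 0.0309).

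TUBA1A, the main alpha-tubulin of growing neurons, was among the brightest signals and did not pass. It measured 7744.3 and 6063.1 at 24 hours, 7182.1 and 7091.0 at 48 hours and 7098.6 and 5705.9 at 72 hours under the shMYCN label, against 7407.7, 7913.9 and 6917.6 with control virus and 7075.9 and 5489.0 without virus. The mean was log2 -0.13 ± 0.12 (limma adjusted p = 0.586, 95 percent interval -0.411 to 0.157), and it turned to 0.05 under quantile normalization. The 3 lowest TUBA1A values stood on the 3 arrays with the lowest maximum signal (6138.3, 6690.4 and 6804.0), and the highest stood on the array with the highest maximum (8844.3). The part of this array property in the TUBA1A values was not tested.

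**Figure D3:**
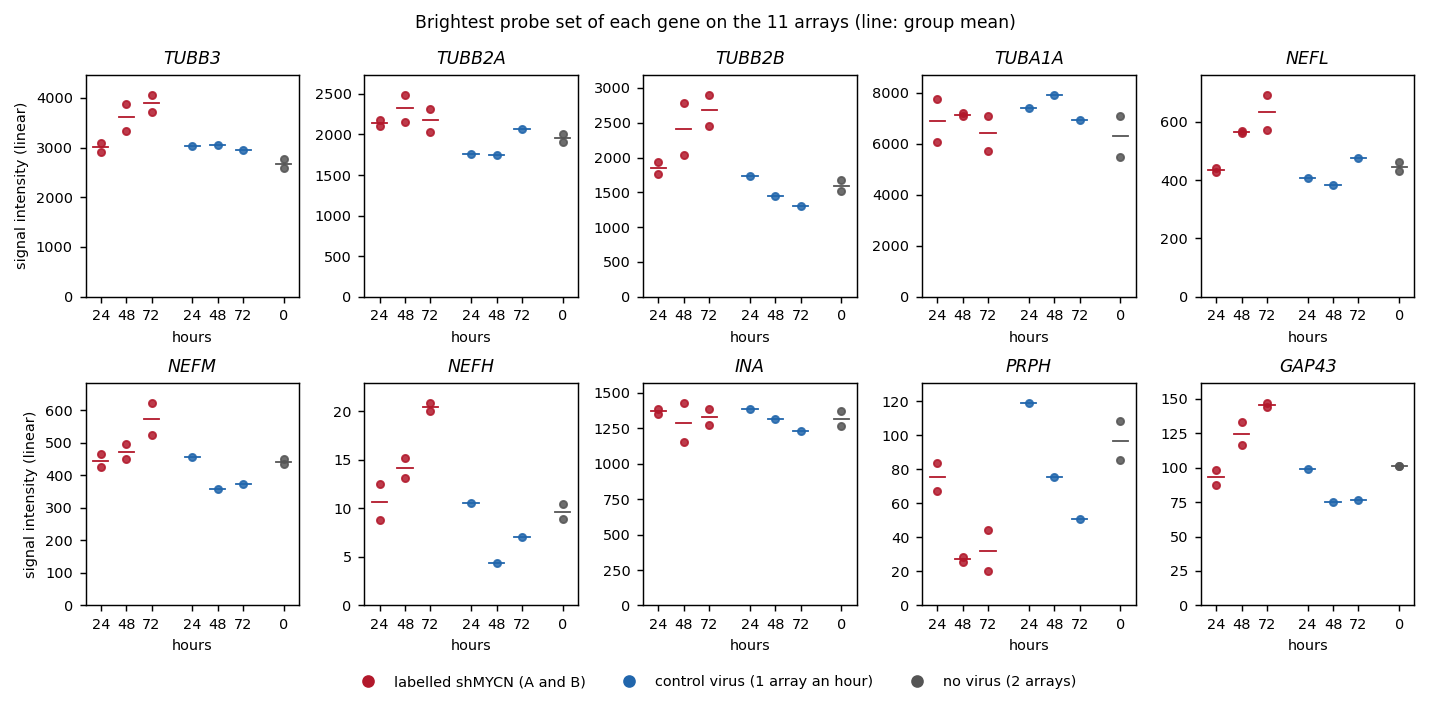
Linear signal intensity of the brightest probe set of each of the 10 genes on the 11 arrays, by hour (points are arrays, lines group means, each axis starts at 0). GAP43, TUBB2B, NEFL, NEFM and NEFH have their highest group mean under the shMYCN label at 72 hours, PRPH is lowest in those of 48 and 72 hours, and TUBA1A and INA overlap.

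All 3 neurofilament subunit genes passed as higher by their brightest probe sets as a mean over the 3 hours. None of these 3 probe sets passed at 24 hours or against no virus. NEFL, the light chain on which the filaments assemble, measured 428.0 and 440.9 at 24 hours, 562.8 and 567.6 at 48 hours and 693.2 and 573.1 at 72 hours under the shMYCN label, against 408.3, 384.9 and 474.6 with control virus and 461.2 and 430.1 without virus. Each array labelled shMYCN lay above the control of its hour, though the groups as a whole overlapped. The mean was 1.27-fold higher (log2 0.34 ± 0.07, limma adjusted p = 0.0111). The second NEFL probe set also rose (log2 0.25 ± 0.06, limma adjusted p = 0.0276), and the third had the same estimate with a wider error (0.25 ± 0.12, limma adjusted p = 0.215). The NEFL mean was 0.24 without the 48 hour control (limma adjusted p = 0.113) and 0.31 without the 72 hour control (limma adjusted p = 0.0779).

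NEFM, the medium chain with long side arms, measured 464.0 and 426.2 at 24 hours, 495.7 and 448.5 at 48 hours and 620.4 and 522.2 at 72 hours under the shMYCN label, against 456.0, 358.3 and 373.2 with control virus and 449.5 and 433.4 without virus. The control arrays of 48 and 72 hours were the lowest of the 11. The mean was 1.24-fold higher (log2 0.31 ± 0.07, limma adjusted p = 0.0195), and at 72 hours NEFM gave log2 0.59 ± 0.12 (limma adjusted p = 0.0155). Its other probe set, which lay between 0.7 and 6.2 on all arrays, under the dim limit, did not pass (log2 -0.07 ± 0.08, limma adjusted p = 0.671). The NEFM mean did not pass without the 72 hour control (0.17, limma adjusted p = 0.332), the 48 hour control (0.28, limma adjusted p = 0.0858) or array A of 24 hours (0.29, limma adjusted p = 0.058). Without array A of 72 hours its 72 hour effect was 0.47 (limma adjusted p = 0.0679).

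NEFH, the heavy chain found in mature axons, was dim. It measured 8.8 and 12.5 at 24 hours, 15.2 and 13.1 at 48 hours and 20.8 and 20.0 at 72 hours under the shMYCN label, against 10.6, 4.4 and 7.0 with control virus and 10.4 and 8.9 without virus. At 48 and 72 hours the arrays labelled shMYCN lay above all 5 others. The mean was log2 0.41 ± 0.10 higher (limma adjusted p = 0.0264) and lost its call under 6 of 19 alternatives, among them leaving out the 72 hour control (0.28, limma adjusted p = 0.268), the 48 hour control (0.33, limma adjusted p = 0.145), either array of 72 hours or array B of 24 hours. At 72 hours it gave 0.66 ± 0.17 (limma adjusted p = 0.0386), a call lost under 10 of 15 alternatives. The size for this dim gene depends on the offset: with 1 added in place of 16 the NEFH mean was 0.96 and the 72 hour effect 1.42 (not passed, limma adjusted p = 0.093), and with 64 added 0.15 and 0.25. The mean over all arrays was 11.97, just above the dim limit, and in the fit of 1 value a gene NEFH fell below the filter and was not tested. The second NEFH probe set was dimmer and did not pass (log2 0.22 ± 0.15, limma adjusted p = 0.404).

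INA, which encodes alpha-internexin, the filament protein of early neurons, did not pass. It measured 1354.6 and 1388.6 at 24 hours, 1153.2 and 1425.9 at 48 hours and 1388.0 and 1271.7 at 72 hours under the shMYCN label, against 1384.7, 1315.4 and 1228.2 with control virus and 1374.2 and 1264.4 without virus. All groups overlapped, and the highest of the 11 values was 1.24 times the lowest. The mean was log2 0.02 ± 0.08 (limma adjusted p = 0.908, 95 percent interval -0.155 to 0.197).

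PRPH, which encodes peripherin, the filament protein of peripheral and sympathetic neurons, fell. It measured 67.3 and 83.7 at 24 hours, 25.3 and 28.7 at 48 hours and 20.1 and 44.3 at 72 hours under the shMYCN label, against 118.6, 75.7 and 51.0 with control virus and 85.6 and 108.1 without virus. All 6 arrays labelled shMYCN lay below the control of their hour, and the control arrays themselves declined with the hour. The mean log2 fold change was -0.73 ± 0.17 (limma adjusted p = 0.0229), and no single hour passed (limma adjusted p = 0.617, 0.0807 and 0.321 at 24, 48 and 72 hours). From 24 to 72 hours PRPH changed by log2 -0.97 ± 0.24 in the arrays labelled shMYCN (limma adjusted p = 0.0314), and by -1.01 ± 0.33 between the single control virus arrays (not passed, limma adjusted p = 0.577). The difference between these changes gave 0.04 ± 0.41 (limma adjusted p = 0.983). The PRPH mean did not pass without array A of 24 hours (-0.68, limma adjusted p = 0.0646), the 48 hour control (-0.54, limma adjusted p = 0.157) or the 72 hour control (-0.83, limma adjusted p = 0.0663).

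GAP43 had the smallest p of the members. Its brightest probe set measured 87.7 and 98.1 at 24 hours, 132.9 and 116.2 at 48 hours and 146.5 and 143.9 at 72 hours under the shMYCN label, against 99.3, 74.7 and 76.6 with control virus and 101.2 and 100.8 without virus. At 24 hours both arrays labelled shMYCN lay under their control, and at 48 and 72 hours they lay above all 5 other arrays. The mean was 1.36-fold higher (log2 0.45 ± 0.07, limma adjusted p = 0.00437), and 72 hours gave 1.74-fold (log2 0.80 ± 0.12, limma adjusted p = 0.00457). The mean was 0.27 without the 72 hour control (limma adjusted p = 0.136). The 72 hour effect passed under all 16 alternatives run for it. None of them left out the single control virus array of 72 hours, without which that effect cannot be estimated. The difference between the 72 and 24 hour effects was 0.88 ± 0.17 and just missed the threshold (limma adjusted p = 0.0526).

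The other 2 GAP43 probe sets did not pass as a mean. One measured 40.8 and 44.0 at 24 hours, 39.1 and 54.4 at 48 hours and 63.5 and 63.2 at 72 hours under the shMYCN label, against 49.4, 51.3 and 34.3 in the control virus arrays and 45.7 and 41.5 without virus. It was highest at 72 hours, as the brightest was, but not above its control at 24 hours and only in array B at 48 hours (mean log2 0.13 ± 0.11, limma adjusted p = 0.519, and 0.66 ± 0.19 with adjusted p = 0.0562 at 72 hours). The other averaged 10.6 over the 11 arrays, below the dim limit, and gave 0.11 ± 0.13 (limma adjusted p = 0.637).

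By hour, none of the 17 probe sets passed at 24 hours, where 0.0487 percent of all probe sets did (20 of 41091, limma) and 1 member had an unadjusted p below 0.05. At 48 hours 2 of 17 passed, GAP43 and the brightest of NEFL, both higher, beside 4.33 percent of all probe sets in either direction, 1.97 percent higher and 2.36 percent lower. NEFL gave log2 0.54 ± 0.11 (limma adjusted p = 0.0413) and GAP43 0.63 ± 0.12 (limma adjusted p = 0.0304). The count was 0 without array A of 48 hours, without either array of 24 hours and without either no virus array. Over all probe sets the 48 hour count was also lower without either array of 24 hours or either no virus array. It was not lower without array A of 48 hours. At 72 hours 5 of 17 were higher and none lower: TUBB2B, GAP43, NEFM, NEFH and the second NEFL probe set. This stood beside 12.5 percent of all probe sets in either direction, 6.32 percent higher and 6.18 percent lower. By the brightest probe set, 4 of 10 genes were higher beside 8.02 percent and 0 lower beside 7.47 percent. The 72 hour count was 1 without array A of that hour and 3 without either array of 24 hours or either no virus array. It was 8 without either array of 48 hours; arrays of other times enter these folds only through the estimated spread. Over all probe sets the 72 hour count moved the same way in each of these settings. The difference between the 72 and 24 hour effects passed for none of the 17, beside 1.64 percent of all probe sets, with 6 members at an unadjusted p below 0.05.

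**Figure D4:**
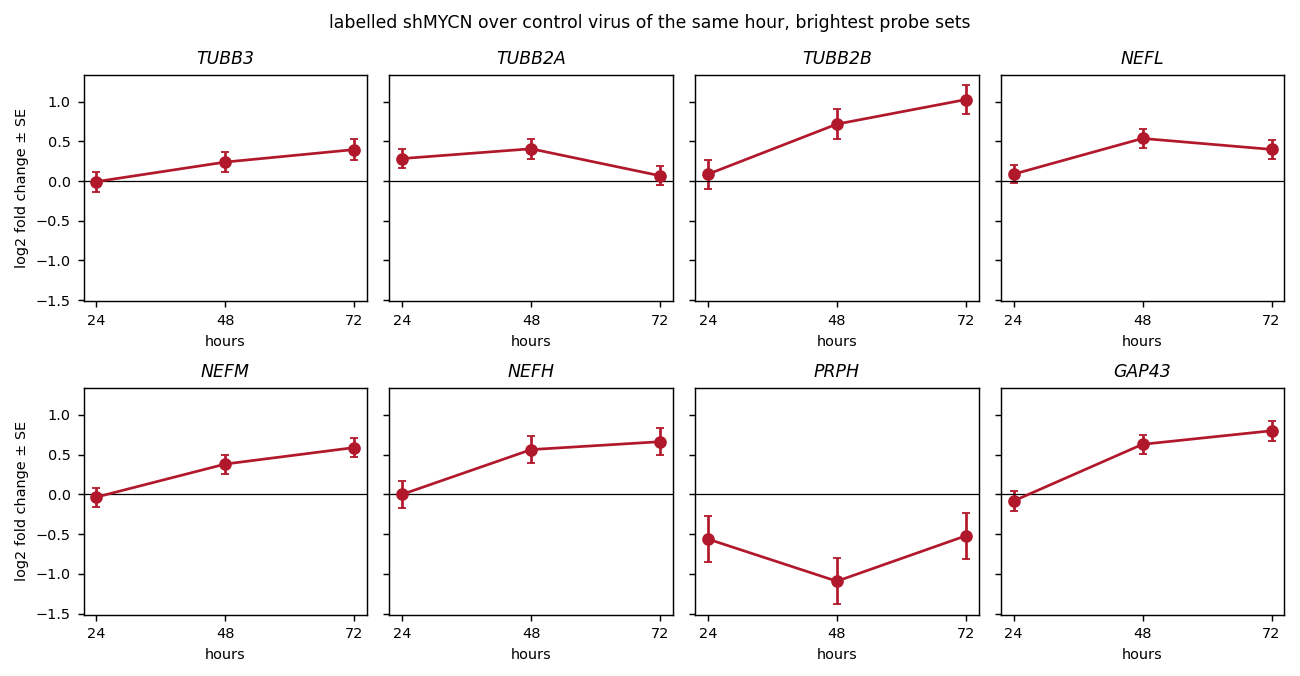
Log2 fold change of signal + 16 (± SE of the limma fit), arrays labelled shMYCN over the control virus array of the same hour, at 24, 48 and 72 hours for the brightest probe sets of 8 genes. TUBB2B reaches 1.02 and GAP43 0.80 at 72 hours, TUBB2A is nearest to 0 at 72 hours, and PRPH lies below 0 at each hour.

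Within the arrays labelled shMYCN, 4 of 17 probe sets changed between 24 and 72 hours, beside 13.7 percent of all. Of these 3 were higher, beside 7.34 percent, and PRPH was lower, beside 6.38 percent. By the brightest probe set, 2 of 10 genes were higher beside 8.46 percent and 1 lower beside 8.5 percent. GAP43 rose by log2 0.57 ± 0.10 (limma adjusted p = 0.00799) and the brightest NEFL probe set by 0.52 ± 0.09 (limma adjusted p = 0.00864). The second NEFL probe set rose by 0.47 ± 0.09 (limma adjusted p = 0.00996). TUBB3, TUBB2B and NEFM gave 0.37, 0.53 and 0.35 and stood just outside the threshold (limma adjusted p = 0.0521, 0.0569 and 0.0534). Leaving out array A of 24 hours or array A of 72 hours gave 0 of 17, leaving out array B of 24 hours gave 1, and leaving out either array of 48 hours gave 9. Over all probe sets the count moved the same way in each of these settings. The step between 24 and 48 hours gave 0 of 17 beside 1.55 percent of all, and that between 48 and 72 hours 0 beside 2.32 percent (limma). In these steps 6 and 2 members had an unadjusted p below 0.05.

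The control virus against no virus, where virus and culture time cannot be told apart, gave no call among all 41091 probe sets (limma, 2334 at an unadjusted p below 0.05, 1 of them a member). The GAP43 estimate in that comparison was log2 -0.24 ± 0.09 (limma adjusted p = 0.841), that of NEFM -0.16 ± 0.09 and that of TUBB2B -0.10 ± 0.14, neither of which passed. The arrays labelled shMYCN against the same no virus arrays called 5 of 17 probe sets, beside 10.8 percent of all: 4 higher, beside 5.62 percent, and 1 lower, beside 5.13 percent. These were both TUBB3 probe sets, TUBB2B (0.51 ± 0.12, limma adjusted p = 0.0358), the second NEFL probe set (0.32 ± 0.07, limma adjusted p = 0.0256) and PRPH (-0.98 ± 0.19, limma adjusted p = 0.0146). GAP43 and NEFM did not pass against no virus (0.21 ± 0.08, limma adjusted p = 0.174, and 0.15 ± 0.08, limma adjusted p = 0.31). Nor did TUBB2A (0.17 ± 0.08, limma adjusted p = 0.252), NEFH (0.26 ± 0.11, limma adjusted p = 0.206) or the brightest NEFL probe set (0.26 ± 0.08, limma adjusted p = 0.0705). Of the genes that rose over control virus, only TUBB2B thus passed against no virus by its brightest probe set. For GAP43, NEFM, NEFH and TUBB2B the control virus arrays of 48 and 72 hours lay below the no virus arrays. The arrays labelled shMYCN of 72 hours lay above the no virus arrays for these genes. Leaving out a no virus array, an shMYCN array of 24 hours or array A of 72 hours lowered the count over all probe sets and that of the 17 members. The count was 0 without either no virus array and 1 without array A of 24 hours, array B of 24 hours or array A of 72 hours.

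Of 14 other tubulin genes measured, none was higher as a mean over the 3 hours and 1 was lower (limma), beside 10.3 and 7.82 percent of all genes (median log2 -0.14, against 0.013 for all genes by their brightest probe set). TUBB6, a widely expressed beta-tubulin, averaged 287 in the arrays labelled shMYCN and 401 in the control virus arrays, and fell by log2 0.57 ± 0.08 as a mean (log2 fold change -0.57, limma adjusted p = 0.00272). It gave -1.24 ± 0.14 at 72 hours (limma adjusted p = 0.00119). The TUBB6 mean was -0.23 without the 72 hour control (limma adjusted p = 0.27) and -0.93 without the 24 hour control, and the additive model gave an adjusted p of 0.133. Between 24 and 72 hours under the shMYCN label 1 of the 14 was higher, TUBA4A (0.48 ± 0.11, limma adjusted p = 0.0208), and 2 were lower, TUBB6 and TUBG1 (-0.48 ± 0.09, limma adjusted p = 0.00865). Over all genes 8.46 percent were higher and 8.5 percent lower between these hours. The TUBA4A mean over the hours was 0.12 ± 0.07 and did not pass (limma adjusted p = 0.342). The general tubulin genes TUBB (-0.21), TUBA1B (-0.19) and TUBA1C (-0.16) did not pass, and they, TUBA4A and TUBG1 were chosen after their values were seen.

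Among 30 measured genes that fold or modify tubulin, 6 were higher, or 20.0 percent, and 2 lower, or 6.67 percent (median log2 0.08). Over all genes 10.3 percent were higher and 7.82 percent lower. A tubulin carboxypeptidase gene, VASH2, whose product removes the terminal tyrosine of alpha-tubulin, rose by 0.72 ± 0.08 (limma adjusted p = 9.32e-04). ARL2, a GTPase of tubulin folding, rose by 0.47 ± 0.05, and TTL, the ligase that puts the tyrosine back, by 0.42 ± 0.05. The prefoldin subunit gene VBP1 fell (-0.49 ± 0.06), as did the polyglutamylase gene TTLL4 (-0.38 ± 0.08), though its 2 dimmer probe sets gave 0.025 and 0.046. The remaining 3 rises, named after their values were seen, were VASH1 (0.48), a second tyrosine carboxypeptidase, its partner SVBP (0.31) and MATCAP1 (0.53), a further enzyme that removes tyrosine. A second bright VASH2 probe set gave 0.67 and a low-signal one -0.07, and the 4 low-signal VASH1 probe sets gave 0.49 (passed, but below the dim limit), 0.16, -0.0019 and -0.026. Without the 72 hour control VBP1 gave -0.32 (limma adjusted p = 0.0578), TTLL4 -0.22 (limma adjusted p = 0.314), MATCAP1 0.25 (limma adjusted p = 0.319) and SVBP 0.21 (limma adjusted p = 0.193). MATCAP1 and SVBP also did not pass in the additive model (adjusted p = 0.0794 and 0.0584). TTLL4 was -0.58 without the 24 hour control and lost its call under 4 of 20 alternatives, among them leaving out the 48 hour control or array B of 24 hours. VASH2, VASH1, ARL2 and TTL passed under all 20.

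Of 13 measured other intermediate filament genes, 1 was higher, or 7.69 percent, and 2 lower, or 15.4 percent (median log2 0.06). Over all genes 10.3 percent were higher and 7.82 percent lower. VIM, the filament of mesenchymal and progenitor cells, averaged 2996 in the arrays labelled shMYCN and 3770 in the control virus arrays (log2 -0.34 ± 0.06, limma adjusted p = 0.00811). The nuclear lamin gene LMNB2 fell (-0.52 ± 0.11), and the low-signal keratin gene KRT10 rose (0.89 ± 0.11). KRT10 ranged between 0.39 and 1.84 with the offset, and was 0.54 without the 72 hour control (limma adjusted p = 0.0645). VIM and LMNB2 also lost their calls without it (-0.28, limma adjusted p = 0.0879, and -0.39, limma adjusted p = 0.161), and LMNB2 without the 48 hour control (-0.48, limma adjusted p = 0.0641). The progenitor filament gene NES, chosen after its value was seen, gave -0.07 ± 0.07 and did not pass.

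Of 11 measured filament linkers and transport genes, 3 were higher, or 27.3 percent, and none lower (limma, median log2 0.21). Over all genes 10.3 percent were higher and 7.82 percent lower. KIF5A, the neuronal kinesin that carries neurofilaments, averaged 192 in the arrays labelled shMYCN and 96.1 in the control virus arrays (log2 0.85 ± 0.07, limma adjusted p = 1.65e-04), while its 2 low-signal probe sets gave 0.050 and 0.0095. KIF5C (0.45 ± 0.06) and the linker of actin and microtubules MACF1 (0.33 ± 0.05) rose too. A second MACF1 probe set also passed (0.31, limma adjusted p = 0.00789), and its remaining probe sets did not. The brightest of those, at signals of 224, 205 and 139, gave 0.14, 0.17 and 0.22 (limma adjusted p = 0.104, 0.124 and 0.139). Without the 72 hour control KIF5C gave 0.35 (limma adjusted p = 0.0508), while the brightest probe sets of KIF5A and MACF1 passed under all 20 alternatives. Of 17 other growth cone membrane and signalling genes, 5 were higher, or 29.4 percent, and 1 lower, or 5.88 percent (median 0.12). At 72 hours the same list had 2 higher and 2 lower, or 11.8 percent each, beside 8.02 and 7.47 percent of all genes. The higher were L1CAM (1.12) and DPYSL3 (0.54). The lower were DPYSL2 (-1.28) and DPYSL5 (-0.63, limma adjusted p = 0.042), of which DPYSL5 was chosen after its value was seen. The adhesion molecule gene L1CAM rose (0.69 ± 0.06), as did DPYSL3 (0.28 ± 0.05), although a second DPYSL3 probe set gave -0.034, and GPM6A (0.39 ± 0.09). DPYSL3 was 0.14 without the 72 hour control (limma adjusted p = 0.306), and GPM6A lost its call under 7 of 20 alternatives, among them leaving out the control of 48 or of 72 hours or any array labelled shMYCN of 24 or 72 hours. L1CAM passed under all 20. The remaining rises, PALM (0.50) and CNTN2 (0.31), named after their values were seen, lost their calls under 8 and 9 of 20, among them without either no virus array. A second CNTN2 probe set gave 0.062 and did not pass (limma adjusted p = 0.835). DPYSL2, the tubulin-binding protein CRMP2, averaged 1627 in the arrays labelled shMYCN and 3269 in the control virus arrays (log2 -1.02 ± 0.06, limma adjusted p = 4.16e-05). BASP1 and MARCKS, which resemble GAP43 in their membrane binding and were chosen after their values were seen, gave 0.18 ± 0.07 and 0.14 ± 0.08 and did not pass.

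Schwann, glial and leukocyte markers were low. The summed signal of 5 Schwann and glial markers lay between 15.3 and 43.8 in the arrays labelled shMYCN, 8.6 and 31.6 in the control virus arrays and 19.4 and 26.7 without virus, and none passed. That of 4 leukocyte markers lay between 11 and 22.6, against 17.5 to 18.3 and 3.9 to 24.9, and none passed. Of 6 fibroblast markers 1 was higher, or 16.7 percent, beside 10.3 percent of all genes. This was COL1A1 (log2 0.67, and 0.57 with a limma adjusted p of 0.0573 without the 72 hour control). At 72 hours 2 of the 6 were higher, or 33.3 percent, beside 8.02 percent of all genes. Between 24 and 72 hours under the shMYCN label 2 of the 6 were also higher, beside 8.46 percent. The sum of the 6 lay between 469 and 721 in the arrays labelled shMYCN, 333 and 406 in the control virus arrays and 356 and 376 without virus. COL1A2, COL3A1, DCN and LUM each averaged 13.0 or less, and the part of these markers in the results was not tested.

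Genes with the most similar course over the 11 arrays were sought among 11865 genes for each member that passed. The points share arrays and scaling, so the Pearson r describes likeness and carries no test. The nearest were ST6GAL2 (0.980), AFG2B (0.972) and FAM204A (0.970) for GAP43 and GPRASP3 (0.979), XPNPEP1 (0.977) and SNX21 (0.975) for TUBB2B. DLG5 (0.946), TASP1 (0.926) and OIP5-AS1 (0.925) were nearest to TUBB2A. LAMTOR3 (0.976), ZNF680 (0.970) and ZRANB1 (0.969) were nearest to NEFL, and CLK4 (0.950), CDS1 (0.945) and DNAJC12 (0.941) to NEFM. DNAJB14 (0.980), SLC38A6 (0.979) and ZNF654 (0.968) were nearest to NEFH, and PRCC (0.961), LIMCH1 (0.953) and CRYBB2P1 (0.951) to PRPH.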

How the data were processed

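Linear signal intensity values of 54675 probe sets on 11 one-colour Affymetrix arrays were used as the authors deposited them. Per the submitters' processing notes MAS5 and GCOS made them; no version, background step or genome build is given in these sources. On each array the mean without 2 percent at either end was 100.01. Names came from GEO's annotation of the platform, updated by Entrez number for 41037 probe sets (RefSeq table, GRCh38.p14). After 62 control sets were dropped, 41091 had 1 symbol, 1801 several and 11777 no name here. On log2(signal + 16), limma 3.58.1 (R 4.3.3) fitted 7 group means without a filter and moderated variances with an intensity trend (4 residual, 4.09 prior degrees of freedom). Lone control arrays were assumed to vary like the 4 groups of 2. All p-values are two-sided and were adjusted over the 41091 by Benjamini-Hochberg (threshold 0.05).

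A gene is represented by its brightest probe set. The members and lists were chosen with earlier results of these data known. Genes named are all members, up to 3 a direction from each list by smallest p, and the 3 nearest in course to each member that passed. Other genes are named where a count or marker list turns on them or, as stated, after their values were seen. The fit was tried on simulated data with independent noise on each array and the same effect at every hour. Such data cannot show how calls behave if A and B share a culture or effects differ by hour. A minus B differences correlated by -0.051, 0.038 and 0.1 between hours, so letters were not treated as pairs. Precision is limited by how few arrays there are. Alternatives covered the offset, scaling, dim filter, variance model, block, additive model and each array left out.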

Additional observations from a re-analysis of the deposited data

Results flagged for a closer look

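The probe set annotated to both TUBB2A and TUBB2B lies outside the tests, which used probe sets with 1 symbol. Its signal averaged 1314 ± 56.1 (SD, n = 2) in the arrays labelled shMYCN at 72 hours, above the highest of the 5 control virus and no virus arrays (892.4). The means at 24 and 48 hours were 796 ± 26.5 and 1044 ± 73.0 (SD, n = 2 each). Which of the 2 genes gives this signal was not tested.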

How the results depend on the processing

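Counts are of member probe sets called by limma. Calls over all probe sets moved with the setting too. At 48 hours they numbered 1778 of 41091 as reported and 2966 of 24654 in the brighter 60 percent. At 72 hours they numbered 5139 and 6404, and between 24 and 72 hours under the shMYCN label 5639 and 6989. Against no virus they numbered 4418, and 4387 with median scaling. Control virus arrays were left out only for the mean over 3 hours and for control virus against no virus. The mean over 3 hours (8) gave 1 under an additive model and 0 to 9 when each array was left out. At 48 hours (2) median scaling gave 1, no variance trend 1, the brighter 60 percent 5 and 1 value a gene 5, with 0 to 3 when each array was left out. At 72 hours (5) median scaling gave 3, the brighter 60 percent 9 and the letter as a replicate block 3, with 1 to 8 when each array was left out. The difference of the 72 and 24 hour effects (0) gave 1 with log2(signal + 1), 1 with quantile normalization, 2 in the brighter 60 percent and 3 with 1 value a gene, and 0 to 2 when each array was left out. The shMYCN change between 24 and 72 hours (4) gave 7 with log2(signal + 1), 7 with quantile normalization and 10 in the brighter 60 percent, and 0 to 9 when each array was left out. That between 24 and 48 hours (0) gave 1 with log2(signal + 1), 2 in the brighter 60 percent, 2 with 1 value a gene and 1 with the replicate block. Against no virus (5) median scaling gave 1 and no variance trend 2, and 0 to 5 when each array was left out. Fewer features tested or arrays used are part of the filters and left-out settings; otherwise the cause was not tested.

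Of the results listed here, signs turned for estimates that had not passed as reported, and for no other. With quantile normalization TUBA1A gave 0.0484 as a mean, 0.0654 at 72 hours, 0.0389 between 24 and 72 hours and 0.0389 for the difference of hour effects, and INA 0.0255 between 24 and 72 hours. With median scaling INA gave -0.0355 as a mean and -0.01 at 72 hours, and TUBB2A -0.0564 at 72 hours and -0.1051 between 24 and 72 hours. PRPH gave -0.0971 for the difference of hour effects with log2(signal + 1). When each array was left out, INA ranged over -0.0297 to 0.0711 as a mean and -0.1077 to 0.0171 between 24 and 72 hours. TUBB2A ranged over -0.0264 to 0.1587 at 72 hours and -0.0748 to 0.1104 between 24 and 72 hours. TUBA1A ranged over -0.2771 to 0.0372 at 72 hours, -0.2825 to 0.0698 between 24 and 72 hours and -0.1839 to 0.1683 for the difference of hour effects, where PRPH ranged over -0.3295 to 0.4106. Median scaling moved the share of higher calls over all probe sets to 40.9 percent, beside 53.2 percent as reported.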
